A study of Mus musculus with 6 samples.

Results

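Pi16 fibroblasts are fibroblasts of the mouse heart with detectable messenger RNA of Pi16, the gene of peptidase inhibitor 16, a secreted protein that marks adventitial fibroblasts in many tissues. They were chosen by counts of unique molecular identifiers (UMIs, each standing for 1 captured RNA molecule). Cells with at least 1000 UMIs, at least 200 detected genes and at most 20% mitochondrial UMIs were kept. Of these, a fibroblast had at least 10 UMIs of Col1a1, Col1a2, Col3a1 and Dcn together, at least 1 UMI of Pdgfra, Lum and Dpt together, and at most 1 UMI in each of 3 exclusion sums: Cdh5, Csf1r and Ptprc for endothelial and blood cells, Msln and Upk3b for mesothelium, and Myh11 and Kcnj8 for mural cells. A Pi16 fibroblast was such a cell with at least 2 Pi16 UMIs. The choice gave 540 Pi16 fibroblasts of 1594 gated fibroblasts, 30014 kept cells and 34940 deposited cells. A further 155 gated fibroblasts had 1 Pi16 UMI and 899 had 0; the latter are called Pi16-negative fibroblasts and serve as the comparison. A cell with 0 UMIs can still express the gene.

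Adventitial fibroblasts lie in the outer sheath of vessels and in connective tissue septa, where they make microfibrils and elastic fibres and support blood and immune cells. Pi16 and Dpt mark them across organs, together with stem cell antigen 1 (Ly6a), CD34 and microfibril-associated protein 5 (Mfap5), and lineage studies place related cells upstream of specialised fibroblasts. In the injured heart, other fibroblasts first produce chemokines and later turn into matrix-secreting cells that express periostin, tenascin C and smooth muscle actin.

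The study isolated live cells other than cardiomyocytes from mouse hearts and sequenced them with a 3′ single-cell assay. All animals were male and 8 to 12 weeks old, either C57BL/6JRj wild type (WT) or B6.Cg-Trpm4tm1.2-PG knockout (KO) for Trpm4, a calcium-activated cation channel; the type of cells in which the deletion acts and its extent in the gene are not given in the labels. Hearts were taken 24 h after a sham operation, or 24 h or 72 h after the LAD, a coronary artery of the left ventricle, was tied off, which causes a myocardial infarct. Tissue was digested with thermolysin and papain and filtered, and Calcein-AM-positive, DAPI-negative cells were sorted. Each of the 6 groups is 1 library pooled from 4 mice, so animals cannot be compared, a library effect cannot be told apart from genotype or condition, and the labels name no 72 h sham group. Values over the 6 libraries are always given in the order WT sham, KO sham, WT ligation 24 h, KO ligation 24 h, WT ligation 72 h and KO ligation 72 h.

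The libraries held between 3625 and 7286 deposited cells and between 20995280 and 45649061 UMIs. The KO ligation 72 h library was the shallowest, with a median of 2182.5 UMIs per kept cell, against 8559 in the WT ligation 72 h library. No cell barcode was shared by Pi16 fibroblasts of different libraries. The Pi16 fibroblasts had medians of 9199, 9270, 11504, 8702, 7224 and 4433 UMIs per cell, and the Pi16-negative fibroblasts 8188, 7763, 10174, 9520, 24932 and 1767. At 72 h the classes thus differed in depth, in opposite directions in the WT and KO libraries. Levels are UMIs of a gene per 1000000 UMIs summed over all cells of a class in a library (CPM). Trpm4 had 12, 6, 7, 5, 3 and 1 UMIs in the Pi16 fibroblasts; whether the counted 3′ end lies in the deleted part is not stated, so these counts do not check the genotype labels.

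Pi16 itself was the choosing gene, and its level is given as a description. Pi16 stood at 1155, 1648, 1599.7, 1232, 1579 and 2259 CPM in the Pi16 fibroblasts. The median member carried 7, 9, 9, 5, 8 and 4 Pi16 UMIs, and the highest cell of each library 108, 139, 130, 110, 114 and 40. Members therefore ranged from cells at the limit to cells with more than 100 Pi16 molecules in all libraries but the shallowest. At the limit, 23, 32, 8, 8, 5 and 6 members had exactly 2 Pi16 UMIs, and just outside it 34, 49, 19, 16, 8 and 29 gated fibroblasts had 1. Free RNA can place Pi16 UMIs in cells that do not express it. The share of cells with at least 1 Pi16 UMI was 0 to 2.86% among mural cells (library medians 1807 to 5298 UMIs), 6.38% to 12.3% among endothelial cells (2262.5 to 4263 UMIs), 6.02% to 12.2% among monocytes and macrophages (3577 to 11993.5 UMIs) and 15.5% to 28.0% among neutrophils (1933 to 3204.5 UMIs). The shares differed between classes of similar depth. With at least 2 UMIs they were 0 to 1.43% among mural cells and 0.844% to 8.61% in the last 3 classes.

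The share of gated fibroblasts that were Pi16 fibroblasts was near equal in the sham libraries and lowest in the 72 h libraries. It was 45.5% in WT sham (165 of 363, exact binomial 95% interval 40.3 to 50.7) and 46.1% in KO sham (203 of 440, 41.4 to 50.9). After ligation it was 43.6% in WT at 24 h (75 of 172, 36.1 to 51.4) and 31.3% in KO at 24 h (57 of 182, 24.7 to 38.6). At 72 h it was 17.8% in WT (21 of 118, 11.4 to 25.9) and 5.96% in KO (19 of 319, 3.62 to 9.15). The intervals cover counting error only, and with 1 library a group no difference was tested. Cells with at least 1500 UMIs were also thinned to 1500 UMIs, and the gene limits, exclusion sums included, were applied to the thinned counts. This gave 376, 432, 142, 130, 80 and 167 fibroblasts. They are not a subset of the fibroblasts above, since cells over an exclusion limit with all UMIs can pass it when thinned. WT sham thus had 376 fibroblasts against 363. The thinned shares were 18.1%, 20.6%, 26.1%, 22.3%, 12.5% and 7.78%. In the thinned counts the 24 h ligation libraries were above their sham libraries in both genotypes, the opposite of the unthinned order, so no order of sham and 24 h is read from these shares. The 72 h libraries were lowest in both sets. After thinning, however, the WT ligation 72 h interval (6.16 to 21.8) overlapped those of WT sham (14.3 to 22.4) and WT ligation 24 h (19.1 to 34.1). The KO ligation 72 h interval (4.21 to 12.9) lay below those of KO sham (16.9 to 24.7) and KO ligation 24 h (15.5 to 30.4). In KO ligation 72 h the share of 5.96% stood beside 3.15% of neutrophils (1.69 to 5.32) and 3.19% of endothelial cells (1.18 to 6.82) with at least 2 Pi16 UMIs, and its interval overlapped theirs. It lay above that of the library's monocytes and macrophages, at 0.844% (0.473 to 1.39, median 3577 UMIs), and 0 of 80 mural cells had 2 Pi16 UMIs, which allows up to 4.51% (exact binomial upper bound). Of the KO ligation 72 h cells with at least 2500 UMIs, 13.6% of fibroblasts were Pi16 fibroblasts. Of all kept cells, Pi16 fibroblasts made up 3.10%, 3.48%, 2.34%, 0.846%, 0.477% and 0.421%, a share that also moves with the other cells in the sort, and fewer such cells and less Pi16 RNA per cell cannot be told apart.

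**Figure D1:**
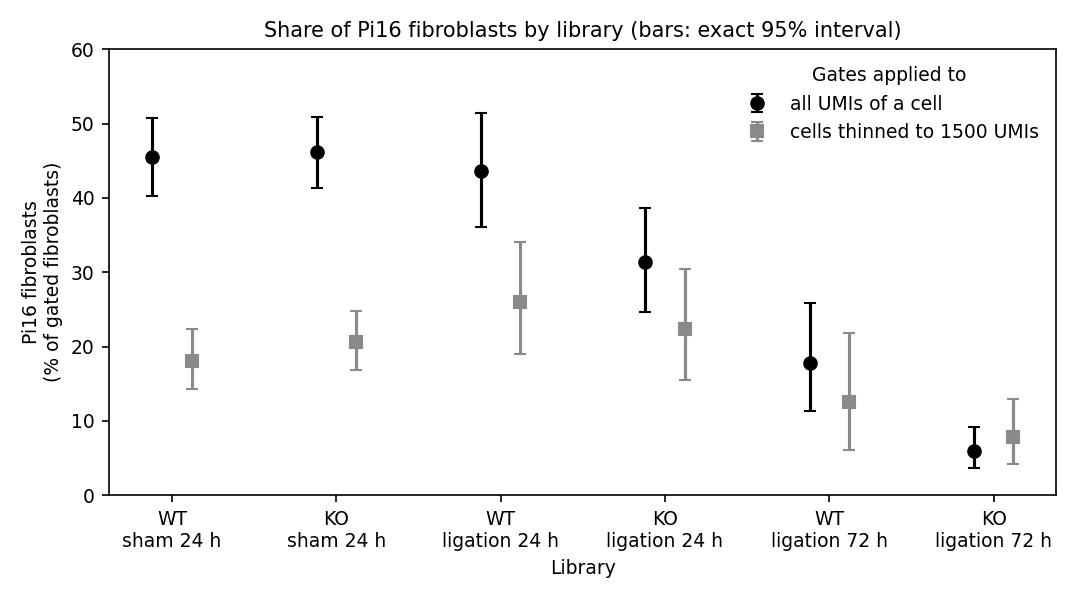
Share of gated fibroblasts that carried at least 2 Pi16 UMIs, in percent, in each of the 6 libraries, with all UMIs and after thinning to 1500 UMIs per cell; bars are exact binomial 95% intervals. With all UMIs the 72 h libraries lie at 17.8% and 5.96% and the other 4 between 31.3% and 46.1%.

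Promoters were printed for the choosing gene and for 1 gene of each direction in the class comparison, to show the letters upstream of genes whose levels are described below. They are RefSeq sequences of GRCm38.p6, from 250 bases before to 50 bases after the transcription start, all on the plus strand: Pi16 at chr17:29318632-29318931, Ackr3 at chr1:90203730-90204029 and Cxcl1 at chr5:90890995-90891294. Capitals mark an NF-kB-like motif (GGG, any 2 bases, TTTCC) in Cxcl1 and the TATA box TATAAA in Ackr3. Motifs were searched on both strands.
Pi16: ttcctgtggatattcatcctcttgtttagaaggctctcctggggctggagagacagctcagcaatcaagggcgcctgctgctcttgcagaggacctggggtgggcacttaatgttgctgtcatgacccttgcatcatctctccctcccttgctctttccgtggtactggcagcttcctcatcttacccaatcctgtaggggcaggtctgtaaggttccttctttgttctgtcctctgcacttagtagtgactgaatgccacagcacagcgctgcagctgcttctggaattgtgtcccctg
Ackr3: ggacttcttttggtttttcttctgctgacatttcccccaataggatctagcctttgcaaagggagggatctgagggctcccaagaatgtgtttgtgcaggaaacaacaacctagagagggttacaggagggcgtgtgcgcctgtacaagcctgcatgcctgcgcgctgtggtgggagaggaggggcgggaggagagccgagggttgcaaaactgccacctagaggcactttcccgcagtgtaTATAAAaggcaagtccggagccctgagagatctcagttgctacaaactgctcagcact
Cxcl1: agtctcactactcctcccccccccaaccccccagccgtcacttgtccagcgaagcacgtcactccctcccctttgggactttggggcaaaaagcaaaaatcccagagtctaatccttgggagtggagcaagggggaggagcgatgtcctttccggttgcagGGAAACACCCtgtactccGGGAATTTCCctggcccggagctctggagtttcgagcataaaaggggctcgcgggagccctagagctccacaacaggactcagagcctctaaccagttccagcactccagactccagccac
The NF-kB-like motif was found in 1.63% of the 32851 mouse promoters of the same length and had 2 matches in Cxcl1, the first at position 162 of the printed run. TATAAA was found in 13.6% of promoters and once in Ackr3, at position 243. CACCC was found in 57.5% of promoters and in that of Pi16, and in Cxcl1 it overlapped the first NF-kB-like match. Of the 12 genes with the largest increase and the 12 with the largest decrease, 5 and 8 had a promoter in the table. Cxcl1 was the only one of these 13 genes with the NF-kB-like motif. A match is a description of letters and not of a bound site.

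Pi16 fibroblasts were compared with Pi16-negative fibroblasts of the same libraries, to ask what else distinguished cells chosen on Pi16. UMIs were summed per class and library, giving 12 sums over 6 libraries, and tested with edgeR's quasi-likelihood test with the library as a block. The pools differ in genotype and condition, and p-values measure the spread of the class difference over these 6 libraries. A gene was called at a Benjamini-Hochberg adjusted p below 0.05 and a fold of at least 1.5. Of 9092 genes tested, leaving out the 15 genes of the limits, 692 (7.61%) were higher and 892 (9.81%) lower in Pi16 fibroblasts, and the median log2 fold change over all genes was 0.01. With each library left out in turn, 488 to 736 genes were higher and 693 to 1039 lower. These shares are the background against which the counts below are read. In the sham libraries alone 441 genes were higher and 544 lower.

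The marker Mfap5, a component of microfibrils, was expressed in both classes and was higher in Pi16 fibroblasts. It stood at 932, 1437, 2013, 1751, 2161 and 1094 CPM in Pi16 fibroblasts and at 361, 446, 901, 677, 844 and 626 CPM in Pi16-negative fibroblasts. Pi16 fibroblasts were higher in each of the 6 libraries, with a log2 fold change of 1.20 ± 0.15 (SE; edgeR adjusted p = 4.8e-05). The SE, here and below, was worked back from the test, as the absolute log2 value divided by the square root of edgeR's F statistic. The remaining markers, Dpt and Pdgfra, were part of the limits and are not tested.

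Ly6a, Ackr3, Cd248, Sema3c and Clec3b were among the 12 genes with the largest increase in Pi16 fibroblasts. Ly6a, stem cell antigen 1, stood at 1387, 1525, 1835, 1695, 1503 and 1034 CPM in Pi16 fibroblasts and 208, 309, 190.0, 149, 179 and 94.8 CPM in Pi16-negative fibroblasts. No library of either class overlapped the other class, and the log2 fold change was 2.95 ± 0.16 (edgeR adjusted p = 2.39e-08). Ly6a is also an endothelial gene. Ackr3, an atypical receptor that takes up the chemokine CXCL12, stood at 176, 265, 338, 201, 272 and 241 CPM in Pi16 and 24.3, 30.1, 34.7, 16.2, 14.0 and 6.96 CPM in Pi16-negative fibroblasts. The lowest Pi16 value was above the highest Pi16-negative value, with a log2 fold change of 3.45 ± 0.20 (edgeR adjusted p = 3.36e-08). Cd248, endosialin, a transmembrane glycoprotein of fibroblasts and pericytes, stood at 181, 268, 346, 221, 399 and 291 against 10.5, 29.5, 19.96, 9.05, 97.0 and 68.7 CPM. Its Pi16-negative levels were highest in the 72 h libraries, still below every Pi16 level, and the log2 fold change was 3.14 ± 0.30 (edgeR adjusted p = 4.52e-06).

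Sema3c, a secreted guidance protein of the semaphorin family, stood at 53.6, 78.2, 94.3, 68.3, 61.1 and 110.4 CPM in Pi16 fibroblasts and 7.17, 11.6, 6.94, 2.58, 2.89 and 3.48 CPM in Pi16-negative fibroblasts, a log2 fold change of 3.50 ± 0.25 (edgeR adjusted p = 2.09e-07). Its lowest Pi16 library was thus several times the highest Pi16-negative library. Clec3b, tetranectin, which binds plasminogen, stood at 1867, 1771, 1316, 1112, 1085 and 1386 CPM in Pi16 and 699, 505, 187, 208, 64.4 and 89.6 CPM in Pi16-negative fibroblasts, a log2 fold change of 2.59 ± 0.28 (edgeR adjusted p = 1.37e-05). The Pi16 levels of Clec3b varied less over libraries than the Pi16-negative levels, which were highest in the sham libraries. The largest log2 fold change was that of Lrrn4cl, at 4.12. The others of the 12 leading genes were Hmcn2, a hemicentin of the matrix (3.33), Tmem100 (2.74), Adgrd1, an adhesion receptor (2.73), Cd55, which limits complement on cell surfaces (2.67), Scara5, a ferritin receptor (2.67), and Pcsk6, a proprotein convertase (2.56). The rule for naming these 12 required the same direction in each library. All 12 stayed called with each library left out in turn and in the sham libraries alone.

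**Figure D2:**
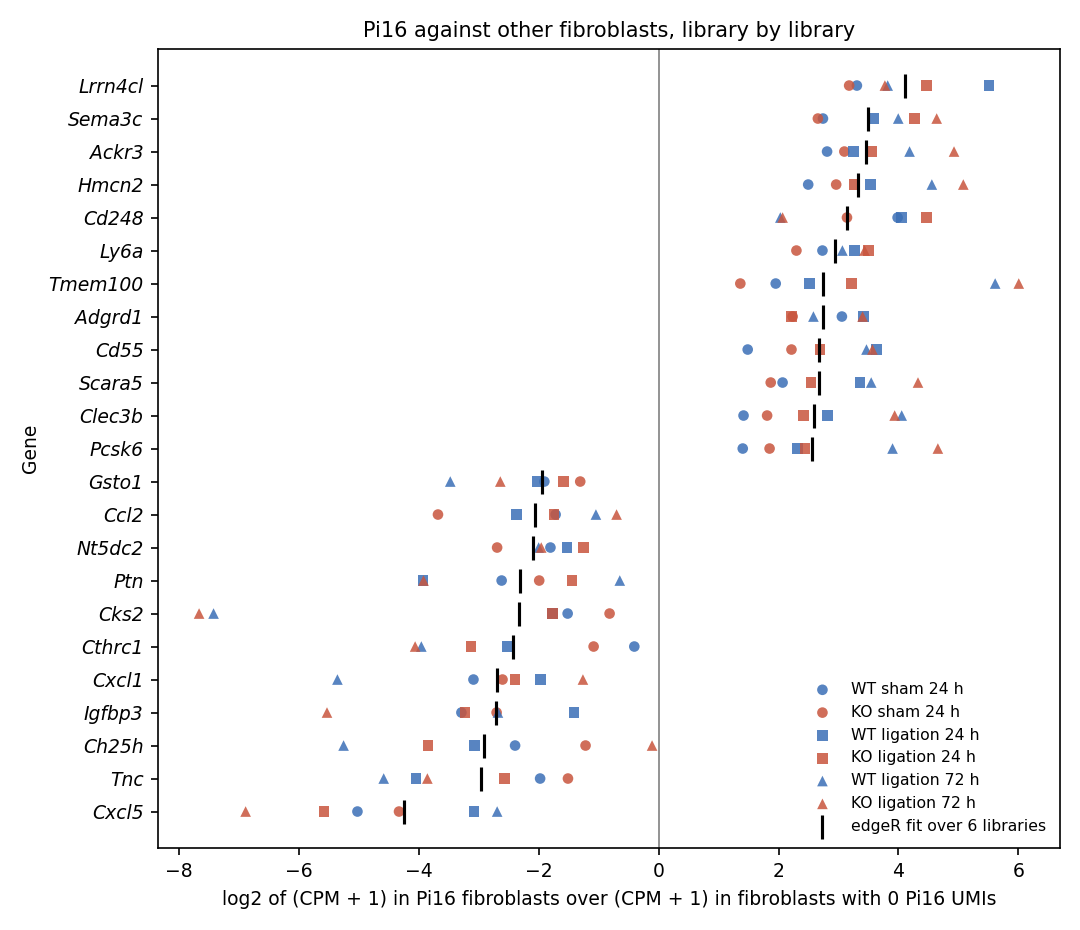
Log2 ratio of CPM + 1 in Pi16 over Pi16-negative fibroblasts for genes named for the largest increases and decreases, 1 point per library, with the edgeR estimate as a tick. The points of Lrrn4cl to Pcsk6 lie above 0 in all 6 libraries and those of Cxcl5 to Gsto1 below 0, as the naming rule required.

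A list of adventitial fibroblast genes was higher nearly throughout. It was chosen with earlier results of these data known, so it is no independent check of the label. Of 28 listed genes tested, 22 were higher and 0 lower, with a median log2 fold change of 2.20. The summed level of the list was 9680.5, 10672, 11851, 8752, 10349.7 and 10482 CPM in Pi16 and 3434, 3593, 2433, 2351, 4893 and 4316 CPM in Pi16-negative fibroblasts, with no overlap. Beside the genes above, they included Cd34 (2.32), Gfpt2, an enzyme of hexosamine synthesis (2.26), Emilin2, an elastic fibre glycoprotein (2.14), Axl, a receptor tyrosine kinase that binds GAS6 (1.62), Creb5, a transcription factor (1.51), and Pcolce2, an enhancer of procollagen processing (1.49). With each library left out in turn, 20 of the 22 stayed called, the exceptions being Fstl1 and Stmn4. Anxa3, Fn1, Limch1, Uchl1, Aldh1a3 and Plac8 did not pass.

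Genes listed for interstitial fibroblasts, which lie between the muscle cells, were not lower in Pi16 fibroblasts. Of 25 tested, 13 were higher and 0 lower, with a median log2 fold change of 0.67. Smoc2, a secreted calcium-binding matrix protein, had 1.51, Htra3, a secreted protease, 1.55, Sparcl1, a counter-adhesive matrix protein, 1.55, and Gsn, gelsolin, 1.72 on the log2 scale. The summed level was 34578, 38298, 31698, 37888, 27295 and 35252 CPM in Pi16 and 28310.5, 36588, 19207, 14787, 6738 and 8821 CPM in Pi16-negative fibroblasts. The classes overlapped in this sum, with the KO sham Pi16-negative fibroblasts above several Pi16 libraries, and lay farthest apart at 72 h. In the sham libraries alone 10 listed genes were higher and 1 lower, with a median of 0.42. The position of the cells in the tissue was not measured, and both lists were higher, so the cells are called by Pi16 and not by place.

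**Figure D3:**
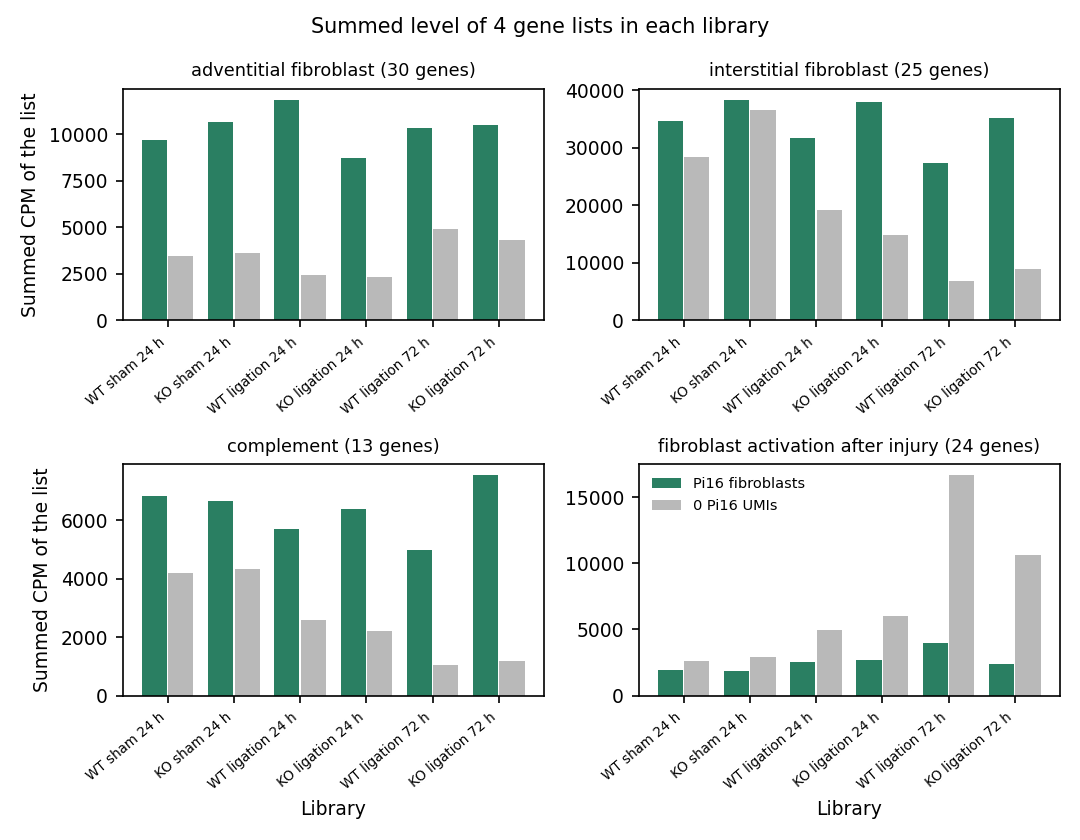
Summed CPM of 4 gene lists (adventitial, interstitial, complement and activation after injury) in Pi16 and Pi16-negative fibroblasts of each library. The adventitial sum is higher in Pi16 fibroblasts in every library, and the activation sum is lower in every library, by most at 72 h.

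Elastic fibre and basement membrane genes were higher more often than they were lower. Of 20 elastic fibre and microfibril genes, 10 were higher and 1, Ltbp2, lower (median 0.61). The lists share genes, so their counts are not independent of each other. The 10 include the marker Mfap5, and Fbn1, Emilin2 and Efemp1, which are also on the adventitial list. Ltbp2 is also on the activation list, and Lama2 and Col15a1 are on both the interstitial and the basement membrane list. Fbn1, fibrillin 1, the core of microfibrils, stood at 634, 815, 1194, 716, 1038 and 763 CPM in Pi16 and 356, 364, 349.7, 363, 489.7 and 458 CPM in Pi16-negative fibroblasts (log2 fold change 1.004 ± 0.15, edgeR adjusted p = 0.000258). Every Pi16 library was above every Pi16-negative library. Of 14 basement membrane genes, 9 were higher and 0 lower (median 0.83), among them Lamc1, a laminin chain (1.78), and Nid1, nidogen, which links laminin to collagen IV (1.33). Of 22 genes of collagens and their processing outside the limits, 7 were higher and 1, Col12a1, lower, with a median of 0.09 near that of all genes. Of these 7, 5 stayed called with each library left out, 4 without the library block and 3 in the sham libraries alone.

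Proteoglycan and matricellular genes were split. Of 23 tested, 12 were higher and 4 lower (median 0.78). The lower genes were Fmod, fibromodulin, Thbs1, thrombospondin 1, and Ccn1 and Ccn2, matricellular proteins that respond to mechanical load. Of the 12 higher genes, 7 stayed called with each library left out. Prelp, Ogn, Thbs2, Ccn3 and Cilp did not, and in the sham libraries alone 6 were higher and 4 lower.

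Complement genes were higher as a group. Of 10 tested, 8 were higher and 0 lower (median 1.17), and all 8 stayed called with each library left out; in the sham libraries alone 6 were higher and 2 lower. C3, the central component of the cascade, stood at 1679, 1369, 1147, 1183, 1447 and 2169 CPM in Pi16 and 762, 618, 406, 434, 272 and 368 CPM in Pi16-negative fibroblasts. The classes did not overlap and the log2 fold change was 1.59 ± 0.18 (edgeR adjusted p = 2.13e-05). C1ra, C1s1, Serping1, Cd55, C1qtnf2 and C1qtnf7 were also higher, the first pair being proteases of the classical pathway and Serping1 and Cd55 inhibitors. C1qtnf2 and C1qtnf7 encode proteins related to C1q that are not components of the cascade, though the list and its sums include them. The summed complement level was 6824, 6651, 5694, 6390.3, 4979.9 and 7530.4 CPM in Pi16 and 4174, 4337, 2593, 2220.4, 1027 and 1176 CPM in Pi16-negative fibroblasts, close to level in the former and lowest at 72 h in the latter.

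Of 20 proteases and inhibitors, 6 were higher and 3 lower (median 0.35). Mmp2, gelatinase A, had 1.34 and Timp2, its inhibitor and cofactor, 1.23 on the log2 scale, while Mmp3, stromelysin 1, had -1.46 and Timp1 -1.70. Among 19 growth factors and receptors, 4 were higher and 1 lower. The higher genes were Tgfbr2 and Tgfbr3, receptors of transforming growth factor beta, at 1.21 and 1.22, Igfbp4 and Angptl1. Igfbp3, which binds insulin-like growth factors, was the lower one, at -2.71. Of 13 Wnt and bone morphogenetic protein modulators, 3 were higher (Sfrp1, Bmp6 and Nbl1) and 4 lower (Wif1, Sfrp2, Dkk3 and Wnt5a). The Wnt antagonists of the Sfrp family thus split, with Sfrp1 at 1.23 and Sfrp2 at -0.93.

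Of the genes named by rank as lower in Pi16 fibroblasts, Cxcl5 had the largest decrease, and Cxcl1 and Ccl2 were further chemokines among them. Cxcl5 is a ligand of the neutrophil receptor CXCR2 and stood at 31.2, 40.1, 277, 18.4, 56.4 and 0 CPM in Pi16 and 1046, 826, 2345, 931, 370.0 and 117 CPM in Pi16-negative fibroblasts. The KO ligation 72 h Pi16 fibroblasts had 0 UMIs, which allows up to 30.1 CPM, and in WT ligation 24 h a single cell held 70.1% of the class's Cxcl5 UMIs. The log2 fold change was -4.25 ± 0.32 (edgeR adjusted p = 3.74e-07). Cxcl1, another CXCR2 ligand, whose promoter is printed above, stood at 24.7, 18.0, 164, 95.9, 4.70 and 20.1 against 218, 114, 644, 508, 232 and 49.6 CPM. Its log2 fold change was -2.69 ± 0.23 (edgeR adjusted p = 1.79e-06), the same direction in each library being part of the naming rule. Ccl2, which draws monocytes, had a log2 fold change of -2.06 ± 0.27 (edgeR adjusted p = 8.24e-05).

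Of 21 inflammatory and chemokine genes, 6 were lower (Ccl2, Ccl7, Cxcl1, Cxcl5, Icam1 and Ptx3) and 3 higher (Ccl8, Ccl11 and Has2), with a median of -0.37. Ccl11, eotaxin, which draws eosinophils, stood at 103, 31.4, 47.2, 97.8, 141 and 20.1 CPM in Pi16 and 63.4, 24.9, 19.96, 29.7, 4.96 and 6.09 CPM in Pi16-negative fibroblasts. It was higher in Pi16 fibroblasts of each library (log2 fold change 1.36 ± 0.35, edgeR adjusted p = 0.0120) but lost its call when 1 library was left out, as did Icam1. Cxcl2, Cxcl10, Cxcl12, Cxcl14, Il33 and Saa3 were among the 12 that did not pass.

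Genes of fibroblast activation after injury were lower. Of 23 tested, 14 were lower and 0 higher, with a median of -1.07; 13 of them stayed called with each library left out, all but Spp1. Tnc, tenascin C, a matrix glycoprotein of wounds, stood at 22.4, 18.0, 19.9, 51.7, 28.2 and 20.1 CPM in Pi16 and 91.0, 53.2, 345, 313, 699 and 304 CPM in Pi16-negative fibroblasts. Pi16 fibroblasts stayed at or below 51.7 CPM while the Pi16-negative fibroblasts were at 304 CPM or more in all 4 ligation libraries (log2 fold change -2.96 ± 0.32, edgeR adjusted p = 1.5e-05). Cthrc1, a secreted protein of scar-forming fibroblasts, stood at 24.7, 8.74, 9.43, 3.69, 75.2 and 30.1 against 33.1, 19.7, 59.0, 40.1, 1182 and 518 CPM (log2 fold change -2.43 ± 0.41, edgeR adjusted p = 0.000645). Its class difference was small in the sham libraries, where alone it was not called, and large at 72 h. Postn, periostin, had a log2 fold change of -1.07, and Acta2, smooth muscle actin, -2.12. In the sham libraries alone 10 listed genes were lower and 2 higher, with a median of -0.48.

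Further genes with a large decrease were Ch25h, which makes 25-hydroxycholesterol (-2.92), Igfbp3, Cks2, a cell cycle kinase subunit (-2.33), Ptn, the growth factor pleiotrophin (-2.31), Nt5dc2 (-2.09) and Gsto1, a glutathione transferase (-1.94). Each stayed called with each library left out, while the same direction in each library was part of the naming rule. Of 8 proliferation genes tested, 6 were lower and 0 higher (median -1.40), among them the replication helicase subunits Mcm2 (-1.54) and Mcm3 (-1.42). Of these 6, 5 stayed called with each library left out, all but Hmgb2, 4 in the sham libraries alone and 4 without the 72 h libraries. The summed level of the list was 213, 121, 165, 188, 169 and 351 CPM in Pi16 fibroblasts. In Pi16-negative fibroblasts it was 301, 173, 279, 304, 1819 and 1858 CPM, so the classes lay farthest apart at 72 h. Of 14 hypoxia and glycolysis genes, 7 were lower and 1, Ndrg1, higher (median -0.75), with Hk2, hexokinase 2, at -1.27. Of the 7 lower genes, 5 stayed called with each library left out, all but Slc2a1 and Pkm, 3 without the library block and 3 in the sham libraries alone, where Ndrg1 was not called.

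Without the library block 0 of the 3 higher inflammatory genes stayed called, 1 of the 4 lower Wnt and bone morphogenetic protein genes and 2 of the 4 lower proteoglycan and matricellular genes. In the remaining lists calls were few or ran in both directions. Of 22 immediate early and heat shock genes, 4 were higher and 6 lower, of 19 interferon-induced genes 2 higher and 0 lower, of 13 metallothionein and stress genes 1 higher and 5 lower, and of 11 circadian clock genes 1 higher and 0 lower. Without the block 2 of the 6 lower immediate early and heat shock genes and 2 of the 5 lower metallothionein and stress genes stayed called. Nr4a1, an orphan nuclear receptor of the immediate early response, was higher (1.33), while Fos, a subunit of AP-1, was lower (-0.97). Sod3, the extracellular superoxide dismutase, was higher (0.84), and Sod2, the mitochondrial one, lower (-0.84).

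Within the gated fibroblasts Ly6a, Cd248 and Clec3b were at their highest in cells with 10 or more Pi16 UMIs in each library. This is a description, since Pi16 chose the cells. In Pi16 fibroblasts with 2 to 3 Pi16 UMIs Ly6a stood at 876, 608, 507, 1128, 589 and 275 CPM, and in those with 10 or more at 1729, 2140.4, 2597, 2453, 1940.2 and 1897 CPM. The cells with 10 or more were higher in each library. Cd248 stood at 78.3, 79.0, 34.5, 32.4, 25.6 and 229 CPM with 2 to 3 Pi16 UMIs and 308, 445, 609, 472, 667 and 536 CPM with 10 or more, and Sema3c at 16.9, 43.9, 14.8, 13.0, 25.6 and 0 and 92.4, 127, 187, 174, 89.0 and 246 CPM. Cxcl5 stood at 91.0, 140.4, 1291, 45.4, 0 and 0 CPM with 2 to 3 Pi16 UMIs and 13.9, 15.0, 2.31, 16.3, 107 and 0 CPM with 10 or more. It was lower with 10 or more in the sham and 24 h libraries, but not at 72 h. These bins held 45, 51, 15, 14, 6 and 9 cells and 65, 91, 36, 19, 8 and 5 cells. The median UMIs per cell were 8448, 8591, 12667, 8175, 4898 and 2254 with 2 to 3 Pi16 UMIs and 9301, 9465, 11640.5, 9577, 8659 and 9317 with 10 or more. The bins were of similar depth in the sham and 24 h libraries and several times apart in KO ligation 72 h, and the part of depth was not tested.

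**Figure D4:**
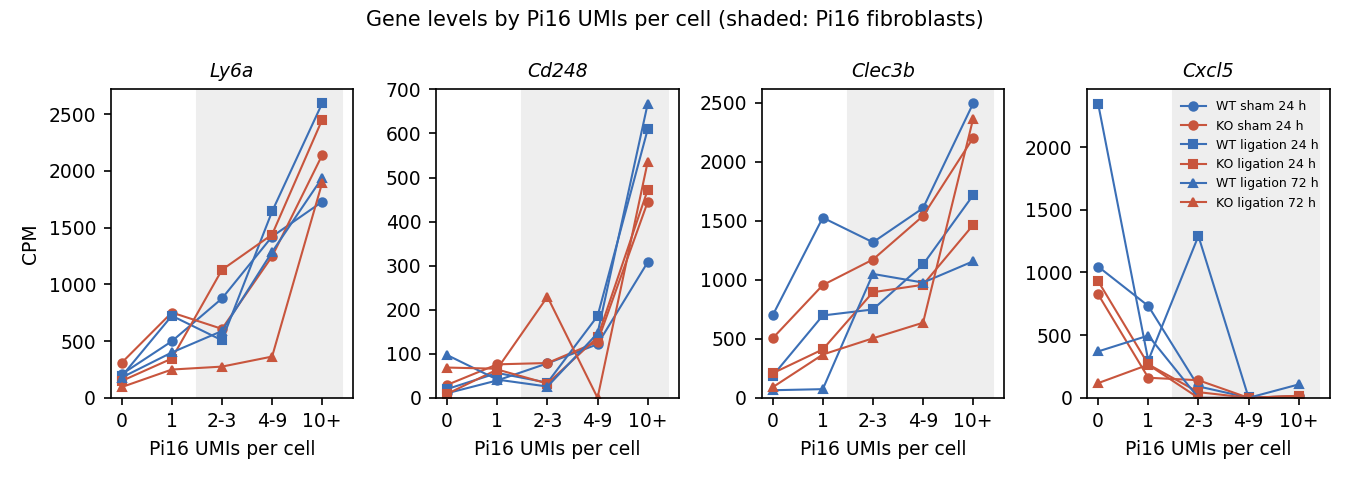
CPM of Ly6a, Cd248, Clec3b and Cxcl5 in gated fibroblasts grouped by Pi16 UMIs per cell (0, 1, 2 to 3, 4 to 9, and 10 or more), 1 line per library. Ly6a runs from between 94.8 and 309 CPM at 0 Pi16 UMIs to between 1729 and 2597 CPM at 10 or more.

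Whether the class difference itself changed after ligation was tested as an interaction of class and condition in the same model, with the WT and KO libraries serving as the 2 libraries of each condition. Genotype differs between those 2 libraries, and the 24 h and 72 h tests share the sham libraries. At 24 h the difference of Pi16 over Pi16-negative fibroblasts was larger than in sham for 10 genes (0.11% of 9092) and smaller for 14 (0.154%). Cd34 had an interaction of 1.17 ± 0.21 on the log2 scale (edgeR adjusted p = 0.0294). Its Pi16 levels were 952, 916, 778, 669.7, 813 and 763 CPM and its Pi16-negative levels 371, 366, 115, 113, 66.9 and 85.2 CPM, so the Pi16-negative levels were lower after ligation by more than the Pi16 levels. Aspn, asporin, a small proteoglycan, had 1.52 ± 0.28 (edgeR adjusted p = 0.0294), and Cthrc1 -2.28 ± 0.46 (edgeR adjusted p = 0.0441). Cd34, Aspn and Cthrc1 all lost their call with cells of 1 Pi16 UMI among the comparison cells. Cthrc1 also lost it with a minimum of 3000 UMIs per cell and after removal of cells with high doublet scores. DESeq2, which gave an adjusted p for 6975 genes, called 1 larger and 4 smaller, and 0 of the 10 genes named at 24 h. Without TMM scaling, where the median of all genes was 0.15 on the log2 scale, the counts were 56 and 13, and without the KO ligation 72 h library 12 and 13.

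More class differences passed the test at 72 h than at 24 h, in both directions. The difference was larger than in sham for 207 genes (2.28%) and smaller for 162 (1.78%). Without TMM scaling, where the median of all genes was 0.15 on the log2 scale against -0.06 with it, the counts were 311 and 89. With DESeq2 they were 135 and 89, but it gave an adjusted p for only 3799 genes, against 9092 with edgeR. These counts are therefore not set on the same genes. Leaving out the KO ligation 72 h library gave 151 and 90. Of the 12 genes named at 72 h, 11 stayed called without that library, all but Apod.

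The class difference of Fn1, fibronectin, was smaller at 72 h than in sham. It stood at 104, 123, 144, 70.1, 460.4 and 653 CPM in Pi16 and 41.9, 71.7, 39.9, 65.9, 1659.9 and 1312 CPM in Pi16-negative fibroblasts. In the sham and 24 h libraries Pi16 fibroblasts had the higher level, by little in KO ligation 24 h, and at 72 h the Pi16-negative fibroblasts did, with both classes above their sham level (interaction -2.70 ± 0.37, edgeR adjusted p = 0.000175). Tnc (-2.85 ± 0.54) and Cthrc1 (-3.50 ± 0.39) had smaller differences at 72 h as well, that is, more negative ones (edgeR adjusted p = 0.00416 and 2.55e-05). Of the activation list 9 genes had a smaller and 0 a larger difference, and of the collagen list 7 and 0, or 6 and 1 without TMM scaling. Acta2 stood at 23.0, 44.7, 3.14, 35.1, 127 and 40.2 CPM in Pi16 and 33.1, 46.8, 13.9, 101, 2255 and 1429.7 CPM in Pi16-negative fibroblasts, with an interaction of -4.31 ± 0.33 (edgeR adjusted p = 1.04e-06). Of the proliferation list 4 genes had a smaller difference, with Cks2 at 0 UMIs in the Pi16 fibroblasts of both 72 h libraries, so its fitted value is no measure of size.

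Interstitial, complement and basement membrane genes had larger class differences at 72 h. Of the interstitial list 13 genes had a larger and 0 a smaller difference, of the complement list 8 and 0, of the basement membrane list 5 and 0, and of the adventitial list 8 and 4. Gsn stood at 19484, 22232, 18067, 19209.7, 14235 and 18766 CPM in Pi16 and 11412, 14326, 6759, 5965, 1562 and 1853 CPM in Pi16-negative fibroblasts. The Pi16 levels lay within a narrow range, and the Pi16-negative levels at 72 h were below all others (interaction 2.35 ± 0.21, edgeR adjusted p = 4.63e-06). Tmem100 (4.35 ± 0.46), Myoc, myocilin (4.30 ± 0.55), Apod, apolipoprotein D (3.86 ± 0.92), Itih5, an inhibitor heavy chain that binds hyaluronan (3.52 ± 0.37), Ccl11 (3.42 ± 0.55) and Ecrg4, a secreted peptide precursor (3.35 ± 0.67), had the largest increases in the difference. The 4 adventitial genes with a smaller difference were Cd248, Fn1, Stmn4 and Plac8. Cell depth differed between the classes at 72 h, as given above, and its part in these differences was not tested.

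Within Pi16 fibroblasts, levels after 24 h of ligation were set beside sham separately in WT and KO. There is 1 library a group, so ratios carry Poisson 95% intervals that cover counting error only and no test was made. The ratios for ligation, time and genotype share libraries and are not independent of each other. Over genes with at least 50 UMIs in the pair, 190 of 6518 (2.92%) were at least 2-fold higher and 186 (2.85%) at least 2-fold lower in WT, and 88 of 6276 (1.4%) and 168 (2.68%) in KO. Metallothioneins, which bind zinc and copper, were higher in both genotypes. Mt2 stood at 340.5, 458, 2167, 1612, 620.1 and 120.5 CPM, a ratio of 6.36 (95% interval 5.80 to 6.99) in WT and 3.52 (95% interval 3.201 to 3.87) in KO. Mt1 had 4.76 (95% interval 4.52 to 5.02) and 3.83 (95% interval 3.61 to 4.06). Both 24 h ligation libraries lay above every other library for each gene. The Pi16-negative fibroblasts had Mt2 ratios of 5.18 and 4.38, so the difference was not limited to Pi16 fibroblasts.

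Immediate early and heat shock genes were higher in WT, with 14 of 19 at least 2-fold higher, 0 lower and a median of 1.49 on the log2 scale. In KO 6 of 18 were, with a median of 0.60. The heat shock genes Hspa1a and Hspa1b, near-identical copies whose reads may be split uncertainly, were among the highest, but 1 KO cell held 80.1% of the Hspa1a UMIs and 1 WT cell 72.2% of the Hspa1b UMIs. After removal of cells with high doublet scores the log2 ratios in KO were -0.44 for Hspa1a and -1.81 for Hspa1b, turned in direction. Ptx3, pentraxin 3, a soluble pattern recognition protein, stood at 18.3, 49.9, 232, 38.7, 18.8 and 50.2 CPM. It was 12.7 (95% interval 8.69 to 19.1) times sham in WT and 0.777 (95% interval 0.460 to 1.25) times in KO, so WT ligation 24 h alone stood above the rest, with 1 cell holding 39.8% of its UMIs. Snhg9, a small nucleolar RNA host gene, had 7, 70, 111, 18, 3 and 2 UMIs and a ratio of 28.2 (95% interval 13.3 to 71.8) in WT, with the WT sham library low. Mfap5 had 2.16 (95% interval 2.02 to 2.31) in WT and 1.22 (95% interval 1.13 to 1.31) in KO.

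Inmt, a methyltransferase of interstitial fibroblasts, stood at 189, 62.7, 49.3, 33.2, 28.2 and 0 CPM, a ratio of 0.261 (95% interval 0.188 to 0.355) in WT. Its 0 UMIs in KO ligation 72 h allow up to 30.1 CPM. Dbp, an output gene of the circadian clock, stood at 181, 33.9, 37.7, 16.6, 42.3 and 80.3 CPM, with 0.209 (95% interval 0.143 to 0.295) in WT and 0.489 (95% interval 0.214 to 0.986) in KO. The WT sham library alone was high, so the WT ratio turns on that library. The hour of sampling is not in the labels, and its part was not tested. Cxcl14, a chemokine of resting stroma, stood at 409, 184, 403, 627, 226 and 141 CPM, with ratios of 0.985 (95% interval 0.867 to 1.12) in WT and 3.42 (95% interval 2.94 to 3.97) in KO. Postn was 0.335 (95% interval 0.203 to 0.524) times sham in KO and 1.52 (95% interval 1.21 to 1.92) times in WT. With cells of 1 Pi16 UMI included, the KO ratio of Postn was 0.10 on the log2 scale and thus turned. Saa3, an acute-phase protein, and Clu, clusterin, were lower in KO, at 0.147 (95% interval 0.108 to 0.196) and 0.125 (95% interval 0.0496 to 0.262), against a KO sham library in which 1 cell held 39.9% and 43.3% of their UMIs.

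**Figure D5:**
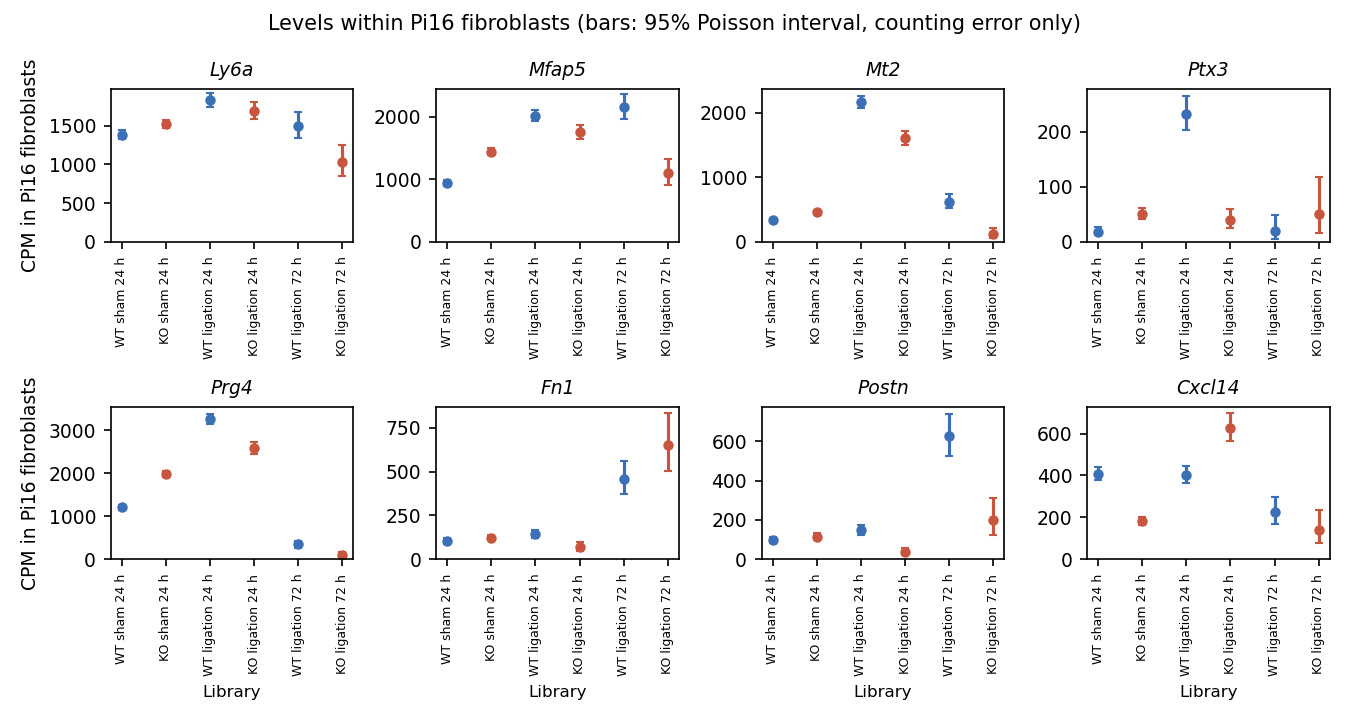
CPM of Ly6a, Mfap5, Mt2, Ptx3, Prg4, Fn1, Postn and Cxcl14 in the Pi16 fibroblasts of each library, with Poisson 95% intervals for counting error. Mt2 is highest in both 24 h ligation libraries, Fn1 in both 72 h libraries, and Ptx3 in WT ligation 24 h.

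From 24 h to 72 h of ligation, 99 of 3658 measured genes (2.71%) were at least 2-fold higher and 367 (10%) at least 2-fold lower in WT Pi16 fibroblasts, and 66 of 2071 (3.19%) and 165 (7.97%) in KO. Only 21 and 19 cells stand behind the 72 h values, and the median ratio of all genes was -0.14 and -0.10 on the log2 scale. Prg4, lubricin, a secreted proteoglycan, stood at 1209, 1987, 3269.7, 2590.1, 348 and 90.4 CPM. Its ratio was 0.106 (95% interval 0.0833 to 0.134) in WT and 0.0349 (95% interval 0.0159 to 0.0664) in KO, so both 72 h libraries lay below both 24 h ligation libraries. Mt2 had 0.286 (95% interval 0.238 to 0.341) and 0.0747 (95% interval 0.0385 to 0.131). Fn1 had 3.21 (95% interval 2.45 to 4.19) and 9.31 (95% interval 6.15 to 14.3), but in WT 1 of 21 cells held 45.9% of the Fn1 UMIs, against 16.9% in KO. Col14a1, an undulin that binds collagen fibrils, had 4.98 (95% interval 2.98 to 8.28) in KO and 3.62 (95% interval 2.53 to 5.18) in WT. Sfrp1, a Wnt antagonist, had 4.26 (95% interval 3.17 to 5.69) and 1.44 (95% interval 1.06 to 1.95).

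Inflammatory genes were lower at 72 h than at 24 h in both genotypes. In WT 9 of 17 were at least 2-fold lower and 3 higher, with a median of -1.25, and in KO 9 of 12 were lower and 2 higher, with -1.87. Of the immediate early and heat shock genes 12 of 18 were lower in WT and 3 of 15 in KO. Of the interferon-induced genes 5 of 9 were higher in WT and 1 of 5 in KO. Isg15, a ubiquitin-like interferon product, stood at 30.0, 42.7, 35.6, 81.2, 357 and 40.2 CPM, a WT ratio of 10.0 (95% interval 6.60 to 15.5), with 1 cell holding 77.6% of its UMIs. Hp, haptoglobin, and Igfbp5 had the largest WT ratios, but 1 cell held 99.1% of the Hp UMIs and 78.0% of the Igfbp5 UMIs. Those WT ratios therefore describe single cells.

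KO was set beside WT within each condition, as the genotype comparison of the design. In sham, 75 of 7596 measured genes (0.987%) were at least 2-fold higher and 55 (0.724%) at least 2-fold lower in KO. Igfbp5, a binding protein of insulin-like growth factors, stood at 34.8, 188, 26.2, 219.5, 277 and 201 CPM, with 5.42 (95% interval 4.11 to 7.26) times the WT level in KO sham and 8.38 (95% interval 5.41 to 13.5) times at 24 h. Comp, cartilage oligomeric matrix protein, had 0.107 (95% interval 0.0643 to 0.168) in sham, whereas in Pi16-negative fibroblasts the KO sham level was 7.34 times that of WT. Dkk3, a secreted glycoprotein of the Dickkopf family, had 3.48 (95% interval 2.58 to 4.75). Of the circadian clock genes measured in sham, 2 of 10 were at least 2-fold higher and 5 lower in KO, with a median of -1.04 on the log2 scale. Dbp had 0.188 (95% interval 0.142 to 0.246) and Nr1d1, a clock repressor, 0.373 (95% interval 0.301 to 0.459). The clock list's median in Pi16-negative fibroblasts was -1.07, so the sham pair differed in clock genes in both classes.

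At 24 h of ligation 41 of 4503 genes (0.911%) were at least 2-fold higher and 79 (1.75%) lower in KO. Ptx3 had 0.167 (95% interval 0.101 to 0.262), Mmp3 0.216 (95% interval 0.148 to 0.308) and Postn 0.262 (95% interval 0.157 to 0.416), all higher in the WT library. With cells of 1 Pi16 UMI included, the Postn ratio was 0.36 on the log2 scale and thus turned. Fbln5, a fibulin of elastic fibres, had a ratio of 2.58 (95% interval 1.91 to 3.51). In Pi16-negative fibroblasts the KO to WT ratio was 1.39 for Ptx3 and 0.703 for Fbln5. Of 22 adventitial genes measured, 4 were at least 2-fold lower and 0 higher in KO, with a median of -0.49, against -0.02 in Pi16-negative fibroblasts. In sham the list went the other way, with 2 of 26 at least 2-fold higher and 0 lower in KO and a median of 0.28. The median Pi16 fibroblast carried 9 Pi16 UMIs in WT and 5 in KO at 24 h, and 7 and 9 in sham. The 72 h libraries had 8 and 4, with a list median of 0.096 in KO over WT. The part of the Pi16 level in these list ratios was not tested. At 72 h 28 of 911 genes (3.07%) were higher and 49 (5.38%) lower, with a median ratio of -0.11 over all genes. Sfrp1 had 3.17 (95% interval 2.25 to 4.50) and Timp1, an inhibitor of matrix metalloproteinases, 0.167 (95% interval 0.0974 to 0.270), while Hp had 0 UMIs in KO against 117 in WT, nearly all from 1 cell.

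Markers of other cells were counted in the Pi16 fibroblasts, since the limits removed only cells with more than 1 UMI of a few of them. The 10 monocyte and macrophage markers summed to 107, 59.7, 73.4, 190.0, 216 and 4599 CPM, with 0, 1, 3, 0, 2 and 0 of them at 0. The KO ligation 72 h library stood apart, with 176 UMIs of Lyz2, lysozyme, and 108 of Cd74, the invariant chain, over its 19 cells; its Pi16-negative fibroblasts had a sum of 5010 CPM. The 8 neutrophil markers summed to 183, 227, 665, 1286, 263 and 472 CPM, highest in the 24 h ligation libraries, with at most 3 of 8 at 0. Of these sums Lcn2, also on the inflammatory list, held 140, 181, 368, 454, 18.8 and 40.2 CPM. The 10 endothelial markers summed to 430.0, 736, 648, 529, 249 and 382 CPM, with up to 7 at 0, and the 10 mural markers to 55.4, 135, 41.9, 70.1, 230.2 and 120.5 CPM, with up to 6 at 0. Of the endothelial sums Ly6c1, also on the adventitial list, held 234, 321, 402, 269, 235 and 251 CPM. The Pi16-negative fibroblasts of the 72 h libraries had mural sums of 3470 and 2212 CPM, against 88.5 to 282 CPM in those of the sham and 24 h libraries. Acta2, which is also on the activation list, made up most of both 72 h sums. The cardiomyocyte markers summed to 11.2, 175, 5.24, 12.9, 14.1 and 30.1 CPM, with 1 KO sham cell holding 77.4% of its Tnnt2 UMIs. Lymphocyte markers were at 0 in 4 libraries and summed to 80.3 CPM in KO ligation 72 h. Of 9 mesothelial markers 6 to 8 were at 0, C3 making up nearly all of their sum, and glial markers summed to at most 60.2 CPM. The class and interaction counts without KO ligation 72 h are given above, while the 72 h ratios in KO rest on that library, and the part of these markers was not tested.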

How the data were processed

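The deposited files are 6 matrices of UMI counts per gene and cell, made by the authors with Cell Ranger 6.0.0, per the submitters' processing notes; the annotation and any filter on cells are not given in the sources used here. Raw counts were used for 32285 genes. The members, the comparison class and all gene lists were chosen with earlier results of these data known, so their counts are no independent support for a direction.

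Cells were gated and counts summed per class and library with Python 3.11.15, numpy 2.4.6 and scipy 1.17.1. Class differences, and their change after ligation, were tested in R 4.3.3 with edgeR 4.0.16 (quasi-likelihood, TMM scaling, library as a block, Benjamini-Hochberg adjustment). The 15 genes of the limits were left out of calls. DESeq2 1.42.0 was an alternative. The library number is the block because both classes come from the same library. Since each group is 1 library of pooled animals, conditions and genotypes were compared only as ratios of CPM with exact Poisson 95% intervals, over genes with at least 50 UMIs in the pair. UMIs count molecules once, and intervals and floors (3 counts for a 0) cover counting error only.

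Genes named by rank were, for the class comparison, the 12 highest and 12 lowest past the threshold with the same direction in each library, at least 50 CPM in the higher class, and at least 0.25 of the CPM of the cell class in which the gene is highest. For each ratio they were the 5 highest and 5 lowest with at least 100 CPM in the higher library and the same 0.25 rule, and for the interaction, by a rule added after the data were seen, at most the 6 highest and 6 lowest. Members of the lists could also be named, and near-identical copies were not named by rank. Some genes that met these rules are not reported here. On simulated data of 8943 genes the class test recovered 95% of 80 genes changed 4-fold and 23.2% of 82 changed 2-fold, with 1 false call among 96. The simulation used a single fixed dispersion, the same class effect in every library and 200 changed genes. Its false-call rate need not hold for the measured data. Doublets were kept in the main values; as an alternative the cells with the highest Scrublet scores (scanpy 1.11.5), 0.8% per 1000 deposited cells, were removed, which took 4, 4, 0, 7, 1 and 0 members. Alternatives with the sham libraries only, without the 72 h libraries, and the interaction without the KO ligation 72 h library were added after the data were seen.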

Additional observations from a re-analysis of the deposited data

Results flagged for a closer look

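At 24 h of ligation, 10 genes were picked out because their class difference (Pi16 over Pi16-negative fibroblasts) differed from that in sham by edgeR's interaction test. It was larger for Aspn (1.52 on the log2 scale), Abca8b, a lipid transporter (1.43), Gsta3, a glutathione transferase (1.17), and Cd34 (1.17). It was smaller for Wif1, a Wnt inhibitor (-8.05), Hist1h2ap, a histone (-3.44), Inhba, the activin A subunit (-3.10), Cthrc1 (-2.28), Rhox5, a homeobox gene (-1.80), and Phgdh, the first enzyme of serine synthesis (-1.73). The fits of Wif1 and of Cks2 below rest on sums with 0 UMIs and give no size. With a minimum of 3000 UMIs per cell 9 of the 10 stayed called, and with doublet scores removed 9, in each case all but Cthrc1. With cells of 1 Pi16 UMI among the comparison cells 3 of the 10 stayed called, and without KO ligation 72 h 9 did, all but Hist1h2ap.

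At 72 h the same test picked out 12 genes. The difference was larger for Tmem100 (4.35), Myoc (4.30), Apod (3.86), Itih5 (3.52), Ccl11 (3.42) and Ecrg4 (3.35). It was smaller for Cks2 (-9.70), Hist1h2ap (-5.27), Tuba1c, a tubulin (-3.62), Cthrc1 (-3.50), Tnc (-2.85) and Fn1 (-2.70). Without the KO ligation 72 h library the value of Tuba1c was -8.72, so its size depends on that library. DESeq2 called 9 of these 12, all but Apod, Ecrg4 and Tuba1c.

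Other genes of the Pi16 fibroblasts had ratios of opposite direction in 2 comparisons, each resting on single libraries, and these differences were not tested. For ligation at 24 h against sham, Ccl11 was higher in KO and lower in WT, 2.77 apart on the log2 scale, and the KO to WT ratio at 24 h against that in sham differed by the same 2.77, since both use the same 4 libraries. Cxcl5 and Mmp3 were higher after ligation in WT and lower in KO, 4.27 and 2.81 apart. A single cell held most of the Cxcl5 UMIs of WT ligation 24 h. With cells of 1 Pi16 UMI included, the KO log2 ratio of Cxcl5 was 0.422 and thus turned. From 24 h to 72 h Ccl11 was higher in WT and lower in KO, 3.86 apart, with few Ccl11 UMIs in KO ligation 72 h. Of the ratios of KO over WT, Ptx3 (4.03) and Snhg9 (4.94) were higher in sham and lower at 24 h, Isg15 (4.34) was higher at 24 h and lower at 72 h, and Egr1, an immediate early factor, was lower at 24 h and higher at 72 h (2.60 apart). A single cell held most of the Isg15 UMIs of WT ligation 72 h.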

How the results depend on the processing

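The 72 h values rest on 21 and 19 cells, and the KO ligation 72 h library is the shallowest; each condition has 1 library per genotype. With 1 Pi16 UMI as the limit the shares were 54.8%, 57.3%, 54.7% and 40.1% in the first 4 libraries and 15.0% in KO ligation 72 h, and with 3 UMIs 39.1% and 38.9% in the WT and KO sham libraries. Thinning gave 18.1%, 20.6%, 26.1% and 22.3% in the first 4, and a minimum of 2500 UMIs 13.6% in KO ligation 72 h.

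For the class comparison a 2-fold threshold gave 299 genes higher and 299 lower, no low-count filter 1458 lower, and the sham libraries alone 441 higher and 544 lower. Without the replicate block 556 were higher and 697 lower, which moved neither count by over 1.5 times; of the named and listed genes called, 111 stayed called without it and 50 did not. Leaving out 1 library gave 488 to 736 higher and 693 to 1039 lower. For the interaction, DESeq2 gave an adjusted p for 6975 genes at 24 h and 3799 at 72 h, against 9092 in the main fit. The 24 h interaction counts were 56 larger without TMM, 40 larger and 70 smaller with no filter, 1 and 8 with cells of 1 Pi16 UMI among the comparison cells, and 1 and 4 with DESeq2. Those at 72 h were 311 and 89 without TMM, 135 and 89 with DESeq2, 398 smaller with no filter and 90 smaller without KO ligation 72 h.

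With at least 20 UMIs over the pair, genes at least 2-fold different numbered 856 (WT) and 775 (KO) for ligation at 24 h, 1337 and 847 for 72 h against 24 h, and 427, 515 and 334 for KO against WT in sham, at 24 h and at 72 h, where cells with 1 Pi16 UMI gave 203. Fewer UMIs per gene add genes with wide counting error.

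Named log2 ratios that turned were, with cells of 1 Pi16 UMI included, Postn (0.0954) and Cxcl5 (0.422) for ligation at 24 h in KO, Cxcl1 for 72 h against 24 h in WT (0.135) and KO (0.516), Cxcl14 (0.225) there in KO, and, for KO against WT, Cthrc1 in sham (0.631), Postn at 24 h (0.357), and Prg4 (0.472) and Cdkn1a (0.0661) at 72 h. As a mean over cells, they were Comp (0.587) and Cilp (0.0509) for ligation at 24 h in WT and KO, Cxcl2 for 72 h against 24 h in KO (0.345) and Pgk1 for KO against WT at 72 h (0.589). With doublet scores removed they were Hspa1a (-0.445) and Hspa1b (-1.81) in KO at 24 h. The cause of these changes was not tested. Of the other ratios of named and listed genes, 1304 moved by less than their counting interval with cells of 1 Pi16 UMI, 1569 with a minimum of 3000 UMIs, 1482 with doublet scores removed and 1319 as a mean over cells, while 274, 8, 67 and 264 moved by more.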
